A study of Mus musculus with 24 samples.

Results

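The promoter of Pax3 was followed through promoter capture Hi-C libraries of mouse cranial neural crest. Promoter capture Hi-C cuts cross-linked chromatin with a restriction enzyme, here HindIII, joins fragments that lay close together and enriches the joined pairs that hold a promoter fragment, called a bait. The Pax3 bait is the fragment chr1:78196361-78197158 (mm10) of 798 bp. It was the only one of 22203 baits that held an annotated end of Pax3 (gene ID 18505, chr1:78101267-78197136), and it holds the end at the higher coordinate, where transcription starts. Pax3 was chosen by its numbers of called partners in Ezh2cKO and WT in these same libraries, so every comparison of Ezh2cKO with WT for Pax3 is a description with no test.

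The 24 libraries formed 12 groups of 2 libraries. At E11.5, Ezh2cKO and WT crest was taken from the frontonasal process (FNP), the maxillary process (Mx), the mandibular process (Md) and the second pharyngeal arch (PA2). Embryos with the Hoxa2PTE-36kb-del allele gave Md and PA2, and embryos with the Hoxa2PTE-42kb-del allele gave PA2. At E8.5, WT crest progenitors were taken. Ezh2cKO is a conditional knockout. The sources used here name neither its Cre driver, nor the position of the deletions, nor what PTE stands for. Per the labels' protocols, crest cells of Wnt1::Cre;ROSARFP and Ezh2cKO embryos were sorted by flow cytometry, and the protocols name no sort for the deletion embryos. Contacts do not measure expression, so the labelled tissues could not be checked against marker genes.

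Pax3 is a paired-box transcription factor that acts at the border of the neural plate, in the early neural crest and in muscle precursors. Its loss in the mouse causes the Splotch phenotype, with neural tube and neural crest defects. Ezh2 is the methyltransferase of Polycomb repressive complex 2, which places the repressive mark on the tail of histone H3 at the promoters of many developmental regulators. Promoters under Polycomb are known to contact each other over long distances.

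Libraries held between 136997 and 183781 called pairs on the same chromosome (cis), and all scores were 5 or more. The lists of the 6 deletion libraries were not made in the same way as the other 18. In the 18 lists of WT and Ezh2cKO, each cis pair of 2 baits stood with the bait of higher coordinate first (0% with the lower one first), whereas in the deletion lists the share with the lower one first was between 48.7% and 49.2%. A bait was therefore counted in either position of a pair. In addition, 1714 of the 138452 cis pairs of 2 baits were called in all 6 deletion libraries and in no other library, against 126 of 1015248 cis pairs of a bait with another fragment. None of the 220 cis pairs of Pax3 did so (0 of 220). Such pairs were rare over all baits, so this count cannot show whether the Pax3 lists were affected.

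In Ezh2cKO crest, Pax3 had fewer called partners than in WT crest in Mx, Md and PA2, and the difference was largest in Md and PA2. The bait had 49 and 41 cis partners in FNP Ezh2cKO, against 45 and 57 in FNP WT. It had 38 and 34 in Mx Ezh2cKO, against 77 and 50 in Mx WT. It had 14 and 15 in Md Ezh2cKO, against 73 and 74 in Md WT. In PA2 the counts were 15 and 11 in Ezh2cKO, against 96 and 63 in WT. The FNP groups overlapped, and in Mx, Md and PA2 both Ezh2cKO libraries lay below both WT libraries.

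Scaled to each library's total of called cis pairs, the log2 difference of Ezh2cKO minus WT was -0.15 for FNP and -0.87 for Mx. It was -2.31 for Md and -2.62 for PA2. Mean calls were 45 ± 5.66 in Ezh2cKO and 51 ± 8.49 in WT for FNP (SD, n = 2 each, as for the other tissues). The Mx means were 36 ± 2.83 in Ezh2cKO and 63.5 ± 19.1 in WT. In Md they were 14.5 ± 0.71 in Ezh2cKO and 73.5 ± 0.71 in WT, and in PA2 13 ± 2.83 in Ezh2cKO and 79.5 ± 23.3 in WT. Among the Ezh2cKO groups, FNP and Mx stood above Md and PA2, which overlapped each other. The WT means had the opposite order, with the lowest in FNP and the highest in PA2, but the replicates did not separate these groups. The PA2 replicates (96 and 63) and the Mx replicates (77 and 50) both spread over the Md values. The lower Mx library also lay between the FNP values (45 and 57). Across all 10344 baits tested with limma (adjusted p under 0.05), the share with fewer calls in Ezh2cKO was 0.638% for FNP, 0.87% for Mx, 1.35% for Md and 1.09% for PA2. A pair is called or not called at a score of 5, so a loss of contact in all cells and a loss in a part of the cells cannot be told apart.

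**Figure D1:**
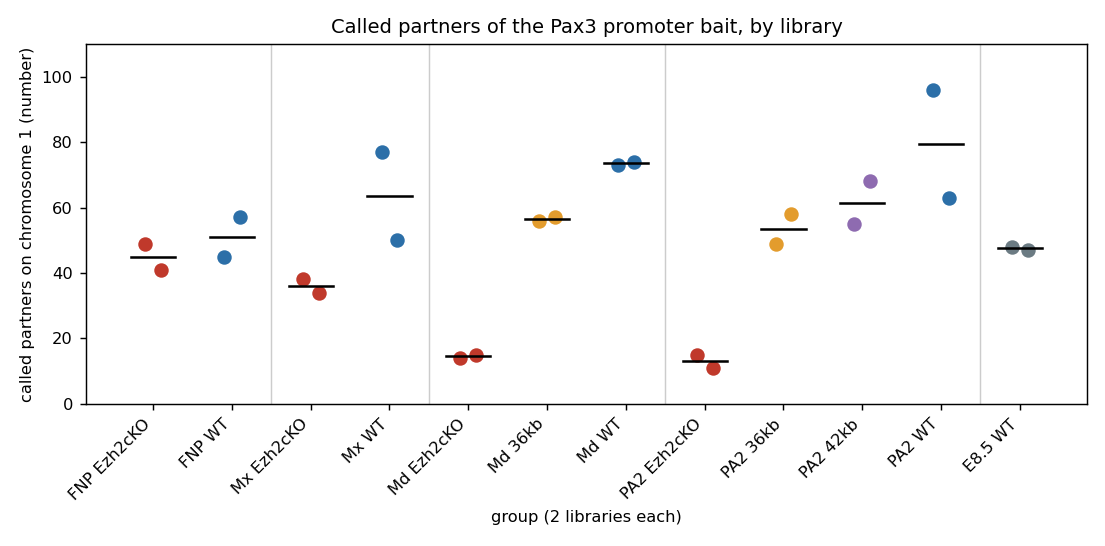
Number of cis partners called for the Pax3 bait in each library. Each point is 1 of the 2 libraries of a group and the bar is their mean. The Md and PA2 Ezh2cKO libraries lie between 11 and 15 calls, and the lowest library of any other group is at 34.

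Over all libraries, 224 fragments were called as partners, 220 of them on chromosome 1. Of the 224, 91 were called in a single library, 95 in both replicates of at least 1 group, 16 in at least 20 libraries and 3 in all 24. Over all baits, 2611 of 138452 cis pairs of 2 baits were called in all 24 libraries. For cis pairs of a bait with another fragment it was 12418 of 1015248. The Pax3 share (3 of 220) lay near these, and the other counts have no such share beside them. Both replicates shared between 36.8% (PA2 Ezh2cKO) and 65.5% (FNP Ezh2cKO) of the partners called in either of them. Presence in 1 library alone therefore says little, and partners are described below mainly by the number of libraries that called them.

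Partners within 1 Mb lay mainly in 3 blocks around the bait. The first block lay beyond the 3′ end of Pax3, on the side of Epha4, from chr1:77938503 to chr1:78032429. Its most regular members were the neighbours chr1:77977687-77979032 and chr1:77979033-77982607, 218 and 216 kb from the bait, which were called in all 24 libraries. Neither holds an annotated gene end. The second block lay inside Pax3, with its most regular member at chr1:78138621-78140181, 57.4 kb from the bait, which was called in 15 libraries. The third block lay upstream, from chr1:78402032 to chr1:78490988, and ended in the bait of Farsb, which encodes the beta subunit of phenylalanyl-tRNA synthetase. The Farsb bait, chr1:78487553-78490988, lies 293 kb from the Pax3 bait and was called with it in all 24 libraries. Inside the same block, a fragment with the other end of Farsb and an end of Gm19072 (220 kb) and one with an end of Sgpp2 (224 kb), which encodes a sphingosine phosphatase, were each called in 21 libraries. The Farsb bait had the highest score in the Pax3 list of 9 libraries, the 2 fragments at 216 and 218 kb had it in 5 and 4 libraries, and 6 other fragments had it in 1 library each. Scores are the authors' own and were used only to rank partners within a list.

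**Figure D2:**
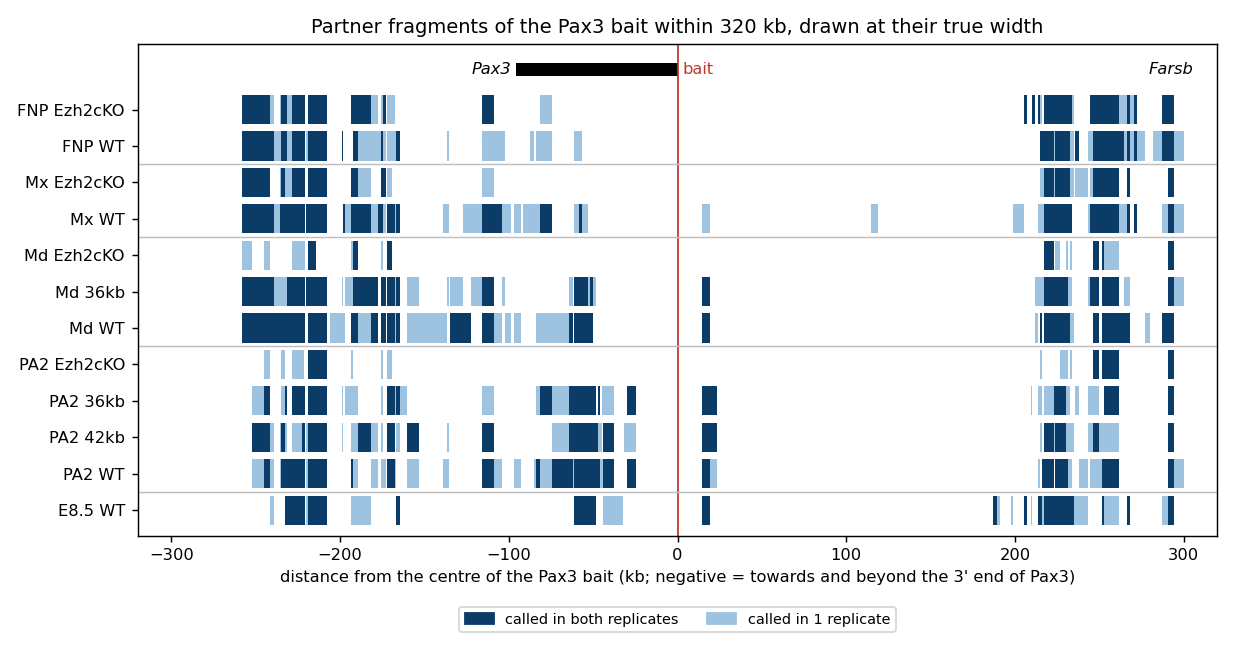
Partner fragments of the Pax3 bait within 320 kb, by group, placed by distance from the centre of the bait and drawn at their true width. Dark segments were called in both replicates of the group and light ones in 1. The black bar is the Pax3 gene. The fragments at 216 and 218 kb beyond the 3′ end and the Farsb fragment are dark in all 12 groups, and the block inside the gene is empty in Mx, Md and PA2 Ezh2cKO.

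The block inside the gene had almost no call in Ezh2cKO crest. Of all partners that overlap the gene, 1 call was made over the 8 Ezh2cKO libraries, in FNP Ezh2cKO replicate 1, against 66 calls over the 8 WT libraries at E11.5. Calls inside the gene numbered 1 and 0 in FNP Ezh2cKO, against 0 and 5 in FNP WT. They numbered 0 in each library of Mx, Md and PA2 Ezh2cKO, against 9 and 2 in Mx WT, 8 and 8 in Md WT and 20 and 14 in PA2 WT. The FNP groups overlapped, and the WT libraries of the other tissues all stood above their Ezh2cKO libraries. The mean difference of Ezh2cKO minus WT inside the gene was -8.125 calls per library. It was -1.75 with a score of at least 10 and -2.625 with touching partners merged. No call inside the gene reached a score of 10 in FNP WT or Mx WT. The member at 57.4 kb was called in 0 of 8 Ezh2cKO libraries and in 7 of 8 WT libraries, and it missed 1 FNP WT library.

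The blocks outside the gene kept some calls in Ezh2cKO crest, but fewer than in WT in Mx, Md and PA2. Beyond the 3′ end, the 8 Ezh2cKO libraries made 101 calls and the 8 WT libraries 217. Mean calls there were 19.5, 17, 7.5 and 6.5 in FNP, Mx, Md and PA2 Ezh2cKO, against 23.5, 31.5, 32.5 and 21 in WT. Between 50 kb and 1 Mb upstream, Ezh2cKO made 105 calls and WT 151. Upstream means were, in the same order, 23.5, 16, 6.5 and 6.5 in Ezh2cKO, against 23, 21, 18.5 and 13 in WT. In FNP the upstream calls numbered 26 and 21 in Ezh2cKO, against 22 and 24 in WT, and these groups overlapped. The 2 fragments upstream within 50 kb, chr1:78211447-78215740 and chr1:78215741-78219929, hold the ends of Gm2102, annotated as protein-coding. They had 0 calls in Ezh2cKO, against 6 calls in WT. The nearer of them was called in both libraries of Md WT and PA2 WT, in 1 of Mx WT and in neither of FNP WT. The mean difference of Ezh2cKO minus WT was -14.5 calls per library beyond the 3′ end, -2.88 with a score of at least 10 and -2.75 with touching partners merged. Upstream between 50 kb and 1 Mb it was -5.75 calls per library, -1 with a score of at least 10 and -0.25 with touching partners merged.

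**Figure D3:**
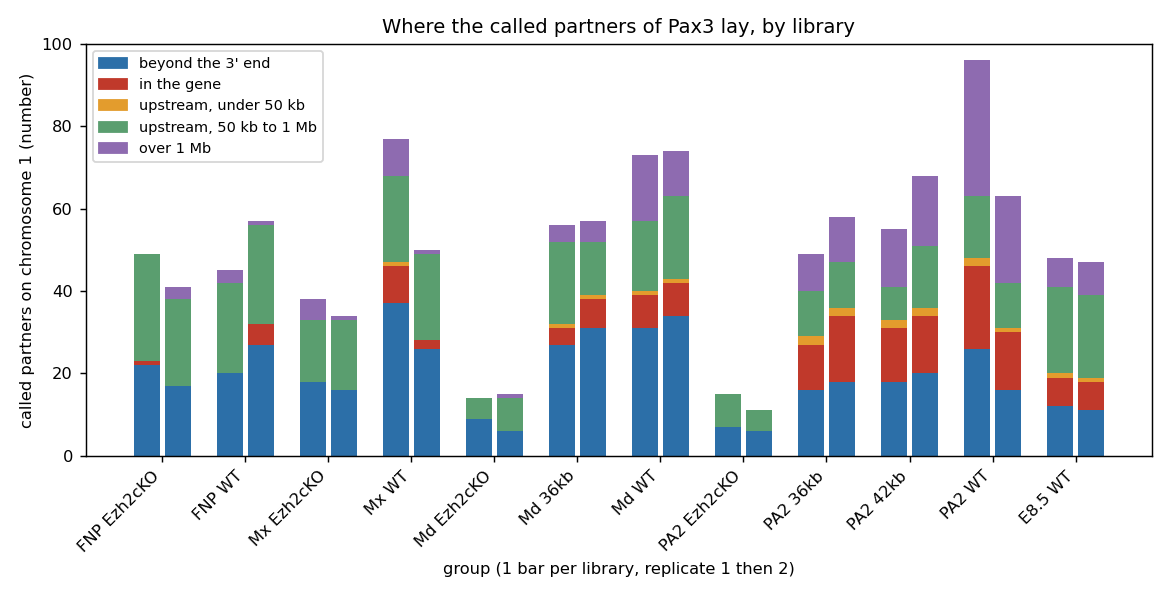
Cis partners of the Pax3 bait in each library, stacked by where they lie relative to the gene. Each bar is 1 library, with replicate 1 left of replicate 2. Partners inside the gene and over 1 Mb away are nearly lacking from the Md and PA2 Ezh2cKO bars. These bars keep some partners beyond the 3′ end and upstream, fewer than the WT bars of the same tissues.

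By fragment, 28 partners were called in at least 7 of the 8 WT libraries at E11.5. Of these, 3 were called in at most 1 of 8 Ezh2cKO libraries, and none was called the other way round (0 of 28). Among 69168 cis pairs of all baits called in at least 7 of 8 libraries of either genotype, the corresponding shares were 2.09% and 1.42%. The 3 fragments were chr1:77955395-77957637, chr1:78027334-78029261 and the member inside the gene at chr1:78138621-78140181. Within tissues, the partners called in both WT libraries and in neither Ezh2cKO library were 4 of 33 in FNP (12.1%) and 10 of 44 in Mx (22.7%). They were 33 of 52 in Md (63.5%) and 32 of 47 in PA2 (68.1%). Over all cis pairs the same share was 15.4% for FNP, 14.3% for Mx, 17.9% for Md and 19.2% for PA2. The reverse pattern, called in both Ezh2cKO and neither WT library, held for 4 of 36 partners in FNP and for none of the 26, 8 and 7 partners in Mx, Md and PA2. Over all cis pairs it held for 15.4%, 17%, 17.5% and 20.2% in the same order of tissues.

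The 33 fragments in Md and the 32 in PA2 had 12 in common (36.4% of those in Md and 37.5% of those in PA2). The matching share over all cis pairs was not computed. Of the 12, 6 lay inside the gene, 4 beyond the 3′ end, 1 upstream within 50 kb and 1 over 1 Mb away. In Md, 16 lay beyond the 3′ end, 8 upstream over 50 kb, 6 inside the gene, 2 over 1 Mb away and 1 upstream within 50 kb. In PA2, 14 lay inside the gene, 9 over 1 Mb away, 5 beyond the 3′ end, 3 upstream over 50 kb and 1 upstream within 50 kb. The 8 partners called in both replicates of Md Ezh2cKO and the 7 of PA2 Ezh2cKO were split between the blocks beyond the 3′ end (4 and 3) and upstream (4 and 4). All 8 in Md and 6 of the 7 in PA2 were also called in both WT libraries of the tissue.

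Partners over 1 Mb away were most numerous in PA2 WT. In Ezh2cKO crest they numbered 0 and 3 (FNP), 5 and 1 (Mx), 0 and 1 (Md) and 0 and 0 (PA2). In WT they numbered 3 and 1 (FNP), 9 and 1 (Mx), 16 and 11 (Md) and 33 and 21 (PA2). Only the PA2 and Md values lay apart between genotypes. A run of 20 partner fragments between chr1:63235312 and chr1:63315125, 14.9 Mb from the bait, made 30 of the 95 such calls in WT. The run overlaps Zdbf2, an imprinted gene, and holds ends of the noncoding genes Gm11608 and 1700039I01Rik. Pax3 was called with fragments of this run 0 times in each of the 8 Ezh2cKO libraries. It was called 0 and 0 times in FNP WT, 1 and 0 in Mx WT, 6 and 4 in Md WT and 13 and 6 in PA2 WT. The deletion libraries had 0 and 2 calls in Md 36kb, 7 and 8 in PA2 36kb and 11 and 7 in PA2 42kb, and the E8.5 libraries 2 and 1.

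**Figure D4:**
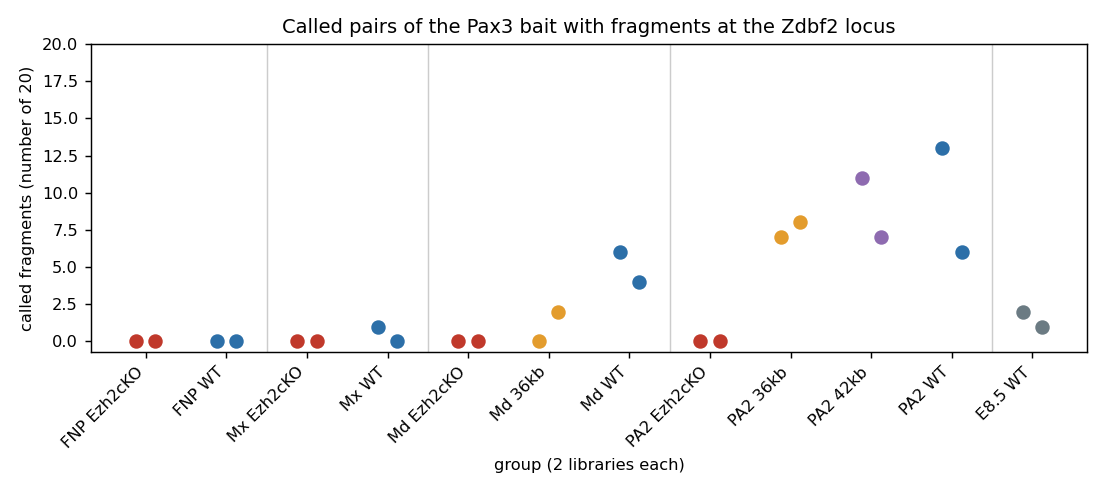
Number of the 20 fragments at the Zdbf2 locus that were called with the Pax3 bait in each library. Each point is 1 of the 2 libraries of a group. All 8 Ezh2cKO libraries are at 0 and the PA2 libraries of the other genotypes lie between 6 and 13.

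Some of the distant partners held an annotated gene end, which need not be a promoter, and fewer of them were called in more than a single library. The share with a gene end over all distant pairs was not computed. The bait of En1, a homeobox gene of midbrain and limb patterning 42.4 Mb away, was called in both E8.5 libraries, 1 WT library at E11.5, 1 deletion library and 0 of 8 Ezh2cKO libraries. The bait of Fev, an ETS-family factor of serotonergic neurons 3.31 Mb away, was called in both PA2 WT libraries and nowhere else. A fragment with an end of the noncoding gene 2610027F03Rik, near En1, was called in 2 WT libraries. Tfap2b, which encodes an AP-2 factor of the neural crest, was called through its bait in 3 libraries, none of them Ezh2cKO. In Ezh2cKO crest, 11 fragments over 1 Mb away or on another chromosome were called, each in a single library, and 2 of them held a gene end (Speg and Ptma). WT at E11.5 had 71 such fragments, 15 with a gene end. The bait of Lhx4, called in 1 PA2 WT library, holds no gene end inside it and is not among the 15.

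Some promoters that lie whole inside partner fragments are printed as picked examples, and they do not represent all partners of Pax3. The 4 below are from RefSeq (GRCm38.p6), each running from 250 bases before to 50 bases after the annotated start, 5′ to 3′ on the gene's strand. The CG dinucleotide, which reads the same on both strands, is in capitals. Farsb is the constant partner, Gm2102 lies in the second of the 2 upstream partners within 50 kb, Zdbf2 stands for the distant run and En1 for a distant homeobox promoter. The Zdbf2 promoter shown is the one inside the bait chr1:63273015-63277585. That bait was called with Pax3 in 2 deletion libraries, whose lists were made differently, and in no WT or Ezh2cKO library.
Farsb, chr1:78488848-78489147, minus strand: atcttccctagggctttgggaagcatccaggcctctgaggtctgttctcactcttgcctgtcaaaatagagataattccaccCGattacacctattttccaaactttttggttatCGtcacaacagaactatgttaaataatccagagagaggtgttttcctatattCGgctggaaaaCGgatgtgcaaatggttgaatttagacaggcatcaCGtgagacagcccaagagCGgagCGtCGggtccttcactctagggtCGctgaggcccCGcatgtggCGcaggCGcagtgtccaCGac
Gm2102, chr1:78218221-78218520, minus strand: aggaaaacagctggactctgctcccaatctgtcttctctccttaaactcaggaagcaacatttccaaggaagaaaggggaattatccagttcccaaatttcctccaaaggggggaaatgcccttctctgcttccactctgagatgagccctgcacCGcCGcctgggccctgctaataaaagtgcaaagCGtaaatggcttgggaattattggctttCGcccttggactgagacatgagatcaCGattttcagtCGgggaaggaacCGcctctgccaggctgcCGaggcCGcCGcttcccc
Zdbf2, chr1:63273019-63273318, plus strand: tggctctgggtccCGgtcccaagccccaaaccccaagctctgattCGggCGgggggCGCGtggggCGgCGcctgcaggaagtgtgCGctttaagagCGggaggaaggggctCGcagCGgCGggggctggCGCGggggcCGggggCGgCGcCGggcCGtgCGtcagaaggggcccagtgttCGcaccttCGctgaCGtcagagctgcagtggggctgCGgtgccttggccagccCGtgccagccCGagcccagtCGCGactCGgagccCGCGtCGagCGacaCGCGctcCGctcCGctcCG
En1, chr1:120602237-120602536, plus strand: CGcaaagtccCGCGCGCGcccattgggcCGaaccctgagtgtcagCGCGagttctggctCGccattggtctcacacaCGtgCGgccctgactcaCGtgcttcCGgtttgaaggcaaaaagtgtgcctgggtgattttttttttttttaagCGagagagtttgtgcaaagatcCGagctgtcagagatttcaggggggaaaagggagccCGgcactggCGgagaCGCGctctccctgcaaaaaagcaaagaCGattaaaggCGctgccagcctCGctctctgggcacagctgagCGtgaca
These 300 bases hold 13 CG in Farsb, 10 in Gm2102, 38 in Zdbf2 and 23 in En1. Over the 32851 promoters of the table the median was 7. At least as many CG were held by 37.9% of them for Farsb, 43.5% for Gm2102, 4.95% for Zdbf2 and 21.5% for En1.

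Between stages, the number of Pax3 partners did not pass the test. WT crest at E11.5 had 66.9 ± 16.5 calls (SD, n = 8 over 4 tissues), against 48 and 47 calls in the 2 E8.5 WT libraries. The log2 difference of E11.5 minus E8.5 was 0.34 (SE 0.18, limma adjusted p = 0.171). Across all baits 28.9% passed the same test, 18.6% with more calls at E11.5 and 10.3% with fewer. With a score of at least 10 the difference turned to -0.41 (adjusted p = 0.355).

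The same blocks were present at E8.5, with fewer calls beyond the 3′ end. Calls there numbered 12 and 11 in the E8.5 libraries, against 16 to 37 in the WT libraries at E11.5. Of 34 partners called in both E8.5 libraries, 17 were called in at least 7 of 8 WT libraries at E11.5 and 4 in at most 1. Over all cis pairs called in both E8.5 libraries, 23.6% had that last pattern, and the share for the pattern of the 17 was not computed. In the other direction, 8 of the 28 partners called in at least 7 of 8 WT libraries at E11.5 were called in neither E8.5 library, against 20.6% over all such pairs. Calls inside the gene numbered 7 in each E8.5 library, and the 6 fragments between chr1:78135607 and chr1:78148565 were called in both. At the far edge of the block beyond the 3′ end, the fragments from chr1:77938503 to chr1:77955394 had 0 calls at E8.5. At E11.5 all of them were called in both libraries of FNP, Mx and Md WT, and in PA2 WT they were called in 0, 1 and 2 of 2 libraries in order along the chromosome. Elsewhere in that block, chr1:78021061-78022216, chr1:78024584-78027333 and chr1:78027334-78029261 also had 0 calls at E8.5. Each of them was called in 7 of 8 WT libraries at E11.5.

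The deletions at Hoxa2PTE did not change the number of Pax3 partners past the test. Md with the 36kb deletion had 56 and 57 calls, against 73 and 74 in Md WT, a scaled log2 difference of -0.20 (SE 0.23, limma adjusted p = 0.692). PA2 with the 36kb deletion had 49 and 58 calls, against 96 and 63 in PA2 WT, a difference of -0.33 (SE 0.23, adjusted p = 0.501). For the 42kb deletion, PA2 had 55 and 68 calls, a difference of -0.21 from the same PA2 WT libraries (SE 0.23, adjusted p = 0.693). The unscaled counts of Md did not overlap, those of the 36kb PA2 comparison did not overlap either, and those of the 42kb comparison did. The interval of 2 SE reached from -0.65 to 0.26 in Md. In PA2 it reached from -0.79 to 0.13 for 36kb and from -0.66 to 0.25 for 42kb. Differences within those bounds were not excluded. Over all baits 3.08%, 1.5% and 1.84% passed in these 3 comparisons. Any batch, the way the lists were made and the sorting of cells cannot be told apart from the deletions. The protocols name a sort for Wnt1::Cre;ROSARFP and Ezh2cKO embryos and none for the deletion embryos. When pairs of 2 baits were left out, the numbers of baits called were 86 in place of 319, 21 in place of 155 and 95 in place of 190, and the Pax3 differences were -0.20, -0.28 and -0.14. Without PA2 WT replicate 1 the 42kb difference was 0.10.

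Partner by partner, the share of Pax3 pairs missing from the deletions did not exceed that of all cis pairs, and for 36kb in PA2 it lay near it. The deletion lists were made differently from the WT lists, and the effect of this on these shares was not tested. Partners called in both WT libraries and in neither deletion library were 5 of 52 for 36kb in Md (9.62%), 10 of 47 for 36kb in PA2 (21.3%) and 8 of 47 for 42kb in PA2 (17%). The shares over all cis pairs were 24.4%, 26.4% and 26.3%. Partners called in both deletion libraries and in neither WT library were 2 of 38, 2 of 34 and 1 of 36 in the same order, against 20.9%, 20% and 22.5% over all cis pairs. Inside the gene, calls numbered 4 and 7 in Md 36kb, 11 and 16 in PA2 36kb and 13 and 14 in PA2 42kb. The fragment at 57.4 kb was called in both libraries of each deletion group.

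Among the other baits within 1.5 Mb of Pax3, few changed with Ezh2. Of 11 such baits, 8 carried the name of a protein-coding gene and 6 of these had enough calls to be tested. Only the bait of Acsl3 and Utp14b passed, with 6.75 ± 3.28 calls in Ezh2cKO and 3.5 ± 2.56 in WT (SD, n = 8 each), a log2 difference of 1.00 (SE 0.32, adjusted p = 0.049). Acsl3 encodes an acyl-CoA synthetase. The share of all baits with more calls in Ezh2cKO was 5.38%. Farsb, at the far end of the upstream block, had 5.75 ± 2.49 calls in Ezh2cKO and 5.25 ± 1.49 in WT (log2 difference 0.03, adjusted p = 0.961). Epha4, an ephrin receptor gene, and Kcne4, Scg2 and Ap1s3 did not pass (adjusted p between 0.181 and 0.825). The call of Acsl3 and Utp14b was lost when baits with few calls were kept in the fit (limma adjusted p = 0.0635), with touching partners merged (0.123) and in a fit of the Ezh2cKO and WT groups alone (0.0827). Of the 16 fits without 1 library, it held only without replicate 2 of a WT group or replicate 1 of PA2 Ezh2cKO.

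Another bait was chosen after its values were seen, because it lies outside the block beyond the 3′ end, on its far side. It was not among the called partners of Pax3. The bait chr1:77895059-77905967, 296 kb from Pax3, holds ends of the noncoding genes Gm33083 and Gm26263. It had 16.9 ± 3.72 calls in Ezh2cKO and 26.6 ± 9.44 in WT, a log2 difference of -0.62 (adjusted p = 0.00241). At E8.5 it had 14 and 16 calls, and the difference of E11.5 minus E8.5 in WT was 0.62 (adjusted p = 0.023). Epha4 had 4 to 9 calls in the WT libraries at E11.5, against 0 and 4 at E8.5, a log2 difference of 1.92 (adjusted p = 0.0118).

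**Figure D5:**
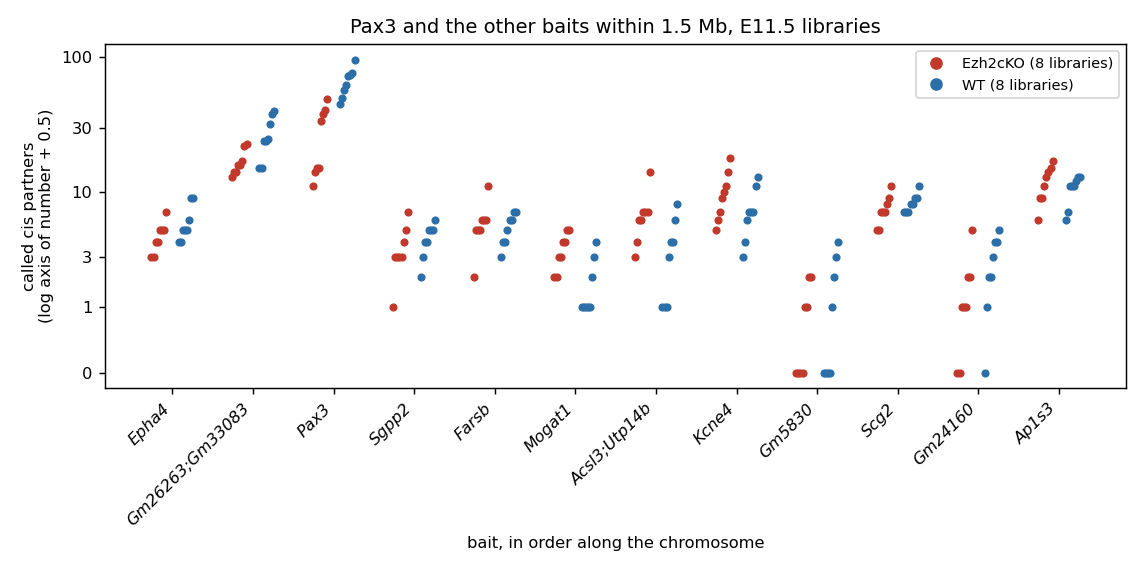
Called cis partners of Pax3 and of the 11 other baits within 1.5 Mb, in the 8 Ezh2cKO and 8 WT libraries at E11.5, on a log axis of the number plus 0.5. Baits are named by the genes whose ends they hold. The Pax3 bait had between 11 and 49 calls in Ezh2cKO and between 45 and 96 in WT.

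Genes that act with Pax3 were listed by role, 50 genes in all, and 33 of them had at least 1 of 35 tested baits. Their count of calls in Ezh2cKO against WT passed for 9 baits, 1 higher and 8 lower, against 5.38% and 5.39% of all baits. The median difference over the 35 baits was -0.09, and over all baits it was 0.01. The list was put together with earlier results of these libraries known, so its direction is no independent evidence.

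Genes of the neural border programme were represented by 6 baits, and 2 of them passed, both lower. They were the bait of Zic1, with 5.13 ± 1.55 calls in Ezh2cKO and 27.8 ± 3.77 in WT (log2 difference -2.40, adjusted p = 3.39e-09), and the bait shared by Zic1 and its divergent neighbour Zic4 (-1.90, adjusted p = 1.17e-09). Zic1 encodes a zinc-finger factor that acts with Pax3 in crest induction in Xenopus embryos. Dlx5, Msx1, Msx2 and Gli3 did not pass (adjusted p between 0.108 and 0.846).

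Upstream regulators of Pax3 were represented by 12 baits, and 3 passed, all lower. Zic2, a paralog of Zic1, had 34.8 ± 9.6 calls in Ezh2cKO and 53.8 ± 6.3 in WT (-0.71, adjusted p = 2.6e-05). The others were the signal Fgf8 (-0.40, adjusted p = 0.0191) and the POU factor Pou3f2 (-0.32, adjusted p = 0.0265). Cdx1, Cdx2, Meis1, Pou3f1, Tead1, Tead2, Wnt1 and Wnt3a were among those that did not pass.

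Among crest factors downstream of or beside Pax3, 4 of 9 baits passed, 3 lower and 1 higher. Neurog2, a proneural factor of sensory ganglia, had 8.63 ± 3.16 calls in Ezh2cKO and 36.6 ± 2.5 in WT (-2.14, adjusted p = 4.5e-10). Foxd3, a forkhead factor of early crest, had 2.88 ± 1.36 calls in Ezh2cKO and 11.3 ± 3.45 in WT (-2.01, adjusted p = 0.000249). Tgfb2 fell by a smaller amount (-0.44, adjusted p = 0.00498) and the Notch target Hes1 rose (0.38, adjusted p = 0.0251). None of the 8 baits of muscle precursor genes passed (0 of 8), among them Myod1 and Eya1.

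Between stages, 20 of the 35 network baits passed, 17 with more calls in WT at E11.5 than at E8.5 and 3 with fewer, against 18.6% and 10.3% of all baits. The largest differences were those of Ets1 (3.03, adjusted p = 1.76e-07), a crest ETS factor, and Tead1 (2.53, adjusted p = 1.04e-05), an effector of Hippo signalling. Among the others, Tgfb2 (1.43), Pou3f2 (1.32), Meox1 at 1 of its 2 baits (1.23), Eya1 (1.08), Msx1 (1.04) and Zic1 at the first of its baits (0.93) also had more calls at E11.5, and Wnt1 had fewer (-0.93). In the deletions, the only network baits that passed were Hes1 for 36kb in PA2, with 61.5 ± 16.3 calls in the deletion and 39 ± 9.9 in WT (log2 difference 0.86, adjusted p = 0.0452), and Wnt1 and Pou3f2 for 42kb in PA2. Pou3f2 had 38 ± 2.83 calls in the deletion and 72.5 ± 0.71 in WT (-0.79, adjusted p = 0.0284), and Wnt1 20.5 ± 0.71 in the deletion and 9.5 ± 3.54 in WT (1.26, adjusted p = 0.0406). With pairs of 2 baits left out, Hes1 (adjusted p = 0.0731) and Wnt1 (adjusted p = 0.434) no longer passed and Pou3f2 did (adjusted p = 0.0461).

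The named baits whose scaled log2 calls followed Pax3 most closely over the 24 libraries were Hoxc13 (Pearson r = 0.858), Foxd1 (0.855), Neurog2 (0.846), Zic5 (0.845) and Six6 (0.841). The correlations describe points that share their libraries and groups. Hoxc13 had mean calls of 54.5, 54, 47.5 and 45.5 in FNP, Mx, Md and PA2 Ezh2cKO, against 78.5, 84, 84.5 and 83 in WT. Neurog2 had 12, 7.5, 6 and 9 in Ezh2cKO, against 34, 37.5, 37 and 38 in WT. Zic5 had 23.5, 26, 13 and 16 in Ezh2cKO, against 32.5, 33, 41 and 40.5 in WT. Foxd1 had 19.5, 24, 15.5 and 18.5 in Ezh2cKO, against 30.5, 29.5, 32.5 and 35.5 in WT. For Six6 the means were 4.5 in Ezh2cKO and 9.5 in WT in FNP, and 2 and 18 in PA2. The FNP means of Pax3 were 45 in Ezh2cKO and 51 in WT. In Ezh2cKO, the FNP and Mx means lay above the Md and PA2 means for Pax3 and for these baits except Neurog2. The baits were picked for likeness to Pax3 over these same Ezh2cKO and WT libraries. A shared order therefore follows from the choice and is no evidence of a common trait.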

How the data were processed

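The 24 libraries were grouped by their titles; the genotype field of PA2 36kb replicate 2 holds another sample's title. Coordinates are in GRCm38 (mm10), per the submitters' processing notes. Each deposited list gave a bait, its other end and a score, which is a CHiCAGO interaction score per the deposited file names; the sources used here name no aligner, caller version or caller setting. Read depth is unknown, so no interval on reads is given, and scores were not compared between libraries. Read counts and the E10.5 stage were not analysed here.

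Baits were the fragments listed first in any library and took the names of RefSeq protein-coding genes (GRCm38.p6) with an end inside them or within 1 kb. For each bait, cis calls plus 0.5 per 100000 cis calls of the library were put on the log2 scale. Baits averaging 5 calls or more (10344) entered a limma fit (version 3.58.1, R 4.3.3; means of 12 groups, all 24 libraries, empirical Bayes with trend, two-sided contrasts, Benjamini-Hochberg adjustment over all baits). The fit was tested on simulated data. Fragment pairs were compared by presence. The members and lists were chosen with earlier results of these data known. Named genes were Pax3, named baits within 1.5 Mb, genes in partners called in both replicates of a group, the 5 baits most like Pax3 and up to 10 list genes per comparison; some list genes are counted but not reported by name here. The E8.5 progenitors and the WT libraries are shared between comparisons. A left-out library, other pseudocounts, scores, filters and scalings were tried.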

Additional observations from a re-analysis of the deposited data

How the results depend on the processing

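None of the 4 tested Pax3 differences passed the threshold under any alternative run (adjusted p between 0.0626 and 0.557 for stage, 0.371 and 0.833 for 36kb in Md, 0.197 and 0.987 for 36kb in PA2, 0.433 and 0.952 for 42kb in PA2). With a score of at least 10 the stage difference was -0.41 and the 36kb Md difference 0.57, both of opposite sign. Without 1 library the differences ranged from 0.25 to 0.42 (stage), -0.20 to -0.19 (36kb Md), -0.64 to -0.02 (36kb PA2) and -0.51 to 0.10 (42kb PA2). The Ezh2cKO differences ranged from -0.33 to 0.03 (FNP), -1.22 to -0.53 (Mx), -2.33 to -2.28 (Md) and -2.93 to -2.32 (PA2). With a score of at least 10 they were -1.45 in Mx, -1.89 in Md and -3.91 in PA2, and with touching partners merged -0.56, -1.40 and -2.02. The cause of these shifts was not tested.

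Partners called in both WT and neither Ezh2cKO library numbered 1 (FNP), 1 (Mx), 5 (Md) and 12 (PA2) with a score of at least 10, and 0, 2, 6 and 11 with touching partners merged. Those called in 7 or 8 WT but 0 or 1 Ezh2cKO libraries numbered 1 under either setting. Alternatives with the bait in the first column only, with pairs of 2 baits left out, and the place counts under other settings were chosen after seeing the data.

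Baits called for stage numbered 2991, and 611 with a score of at least 10, 1688 with touching partners merged and 1668 to 2860 without 1 library. For 36kb in Md the count was 319, and 76 with a score of at least 10, 86 without pairs of 2 baits, 47 in a fit of these groups alone and 111 to 297 without 1 library. For 36kb in PA2 it was 155, and 272 on unscaled calls, 55 with a score of at least 10, 103 from the first column only, 21 without pairs of 2 baits, 6 in a fit of these groups alone and 22 to 300 without 1 library. For 42kb in PA2 it was 190, and 43 with a score of at least 10, 95 without pairs of 2 baits, 81 alone and 29 to 122 without 1 library. The neighbour count of 1 was 0 without the filter and 0 to 1 without 1 library. Network baits for stage numbered 20, and 9 with a score of at least 10 and 9 to 20 without 1 library; for Ezh2cKO they numbered 6 to 9 without 1 library.

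The replicate numbers did not pair libraries: correlations of the deviations of same-numbered libraries lay between -0.034 and 0.014. With the replicate number as a block the Pax3 stage difference stayed at 0.34 (adjusted p = 0.161), and no count of calls moved by over 1.5 times. With 2 libraries a group and no read counts, small changes of single pairs were not detectable.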

Other observations

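The 20 fragments at the Zdbf2 locus were not called with Pax3 alone. In all, 26 baits of chromosome 1 had a call to any of them, and Pax3 had the most, with 0 calls over the 8 Ezh2cKO libraries, 35 over the 6 deletion libraries, 30 over the 8 WT libraries at E11.5 and 3 over the 2 at E8.5. Next came Fzd5, which encodes a Wnt receptor, with 0 calls in Ezh2cKO, 7 in the deletions, 16 in WT at E11.5 and 0 at E8.5, and Tfap2b, with 0, 1, 5 and 3 calls in the same order. The 25 baits other than Pax3 made 1 call in Ezh2cKO and 38 in WT at E11.5. These counts were chosen after the values of the Pax3 run had been seen, and they carry no test.

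Trans partners of Pax3 were rare. A single call to another chromosome was made in each of 4 libraries, FNP Ezh2cKO replicate 1, PA2 36kb replicate 2, PA2 42kb replicate 1 and Md WT replicate 1.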
